A study of Homo sapiens with 5 samples.

Results

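The S100 calcium-binding proteins were followed through 10 genes, S100A2, S100A4, S100A6, S100A8, S100A9, S100A10, S100A11, S100A14, S100A16 and S100P, of 19775 genes that had a probe set of their own. The genes were taken as a family, and every probe set annotated to 1 of them alone was read, 13 in all. Expression had been measured on Affymetrix arrays in 5 established human pancreatic cell lines, with 1 array per line and no second culture of any line. SU86.86, L3.6, PANC1 and HPAF1 are known in the field as pancreatic carcinoma lines, whereas HPDE is known as immortalised cells of normal pancreatic ducts, although the labels describe all 5 as cancer lines. The labels record no treatment of any line and refer to ATCC's protocol for the culture. All 10 genes reached the level filter, an intensity of 140 (the median of all probe sets), in at least 1 line and entered the fit of 14896 genes.

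S100 proteins are small proteins with a pair of EF-hand motifs that change shape when they bind calcium. They act mostly as dimers. Inside the cell they bind partners such as annexins and cytoskeletal proteins, and some are released and bind receptors such as AGER and TLR4. Most of their genes lie side by side on chromosome 1, next to the genes of the epidermal differentiation complex. Several family members, S100P and S100A4 among them, are studied as markers of pancreatic carcinoma.

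Promoter windows from RefSeq (build GRCh38.p14), running from 250 bases before a start site to 50 after it, were matched for 10 of 10 members, with 14 windows in all because some genes have several starts. The TATA box letters TATAAA, searched on both strands, stood in 5 of the 14 windows, belonging to 4 genes, and in 11.5% of all 35116 windows of this length. The letters stood in windows of S100A4, S100A8, S100A9 and S100P, which differed widely between lines. They stood in no window of S100A2, S100A14 or S100A16, which also did. The search was for exact letters, so TATAAG in the S100A6 and S100A14 sequences below was not counted. A link between these letters and the spread between lines was not tested. The 4 stretches of 30 bases are shown because they hold TATAAA, in capitals. They lie at chr1:153545820-153545849 (minus strand), chr1:153391085-153391114 (minus strand, the second of 3 starts), chr1:153357813-153357842 (plus strand) and chr4:6693838-6693867 (plus strand).

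S100A4: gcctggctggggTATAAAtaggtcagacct
S100A8: aagcctaaccgcTATAAAaaggagctgcct
S100A9: tcaggagctgccTATAAAtgccgagcctgc
S100P: atgaggctgcctTATAAAgcaccaagaggc

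The GC box letters GGGCGG, also searched on both strands, stood in 5 of the 14 windows and in 45.0% of all windows. They were in the windows of S100A6, S100A9, S100A10 and S100A11 and in that of the second start of S100A16. The AP-1 letters TGANTCA stood in 1 member window, that of the farthest upstream start of S100A2, and in 7.71% of all windows. The 100 bases before the start are shown for S100A6 (chr1:153535992-153536091), S100A11 (chr1:152037005-152037104) and S100A2 (chr1:153565845-153565944), all on the minus strand, with these letters in capitals. The neighbouring genes S100A14 (chr1:153616326-153616425) and S100A16 (chr1:153613138-153613237, first of its 2 starts), also on the minus strand, held none of the 3 motifs there and are shown because both were low in PANC1. A match of letters is a description of the sequence and not a measured binding site.

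S100A6: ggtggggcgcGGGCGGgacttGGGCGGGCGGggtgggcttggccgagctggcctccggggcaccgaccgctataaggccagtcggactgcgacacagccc
S100A11: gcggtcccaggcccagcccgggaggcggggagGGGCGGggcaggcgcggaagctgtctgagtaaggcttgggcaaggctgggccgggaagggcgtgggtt
S100A2: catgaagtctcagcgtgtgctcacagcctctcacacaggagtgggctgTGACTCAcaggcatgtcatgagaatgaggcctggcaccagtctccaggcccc
S100A14: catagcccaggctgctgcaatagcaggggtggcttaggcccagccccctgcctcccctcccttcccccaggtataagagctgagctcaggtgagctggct
S100A16: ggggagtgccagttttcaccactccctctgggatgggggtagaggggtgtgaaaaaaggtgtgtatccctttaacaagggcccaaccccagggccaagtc

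Median intensity per array ran from 137 to 143. For 18 spike-in control probe sets the highest and lowest arrays differed by 0.21 (log2) in the median and by 0.32 at most. This covers hybridisation and scanning only, and the number of arrays limits the precision of every value. Levels below are deposited intensities. Differences are on the scale log2(intensity + 71.1), which understates differences of dim genes. On their brightest probe sets the markers of epithelial cells EPCAM, KRT8, KRT18, KRT19 and CDH1 were all above the level filter in every line. On these, EPCAM (1715), KRT19 (847) and CDH1 (320) were lowest in PANC1, and KRT8 (2430) and KRT18 (9520) in HPDE. A dimmer probe set of CDH1 read 61.8 in PANC1, and a dimmer one of KRT19 reached the filter only in HPAF1 (188). Of the measured markers of other cells, 1 of 4 endothelial, 1 of 3 lymphoid, 0 of 3 acinar and 1 of 4 islet genes reached the filter in some line. These were PECAM1 (426 to 668), CD3E (144 to 187) and CHGA (181 to 256), each above the filter in every line on its brightest probe set. Myeloid and fibroblast markers are given further below.

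Of the 10 members, 3 had ranges like those of most genes, and the others differed widely between lines. Of the 10 genes, 7 had a highest level at least 4-fold above the lowest, against 13.6% of all genes tested. The members were chosen with earlier results of these data known, so this contrast is a description and no test of the family. The median range was 4.82 over the members and 0.85 over all genes tested. Of the 10 other S100 genes, 4 entered the fit, with a median range of 0.98, and 1 of them had a range of at least 4-fold. Without PANC1 5 members passed this size, and without HPDE 6 did. In each of the 5 lines 6 members lay above the level filter, S100A2, S100A4, S100A6, S100A10, S100A11 and S100A16, against 74.2% of genes tested that did so. These are RNA levels of whole cultures, in which fewer expressing cells and less RNA per cell cannot be told apart.

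**Figure D1:**
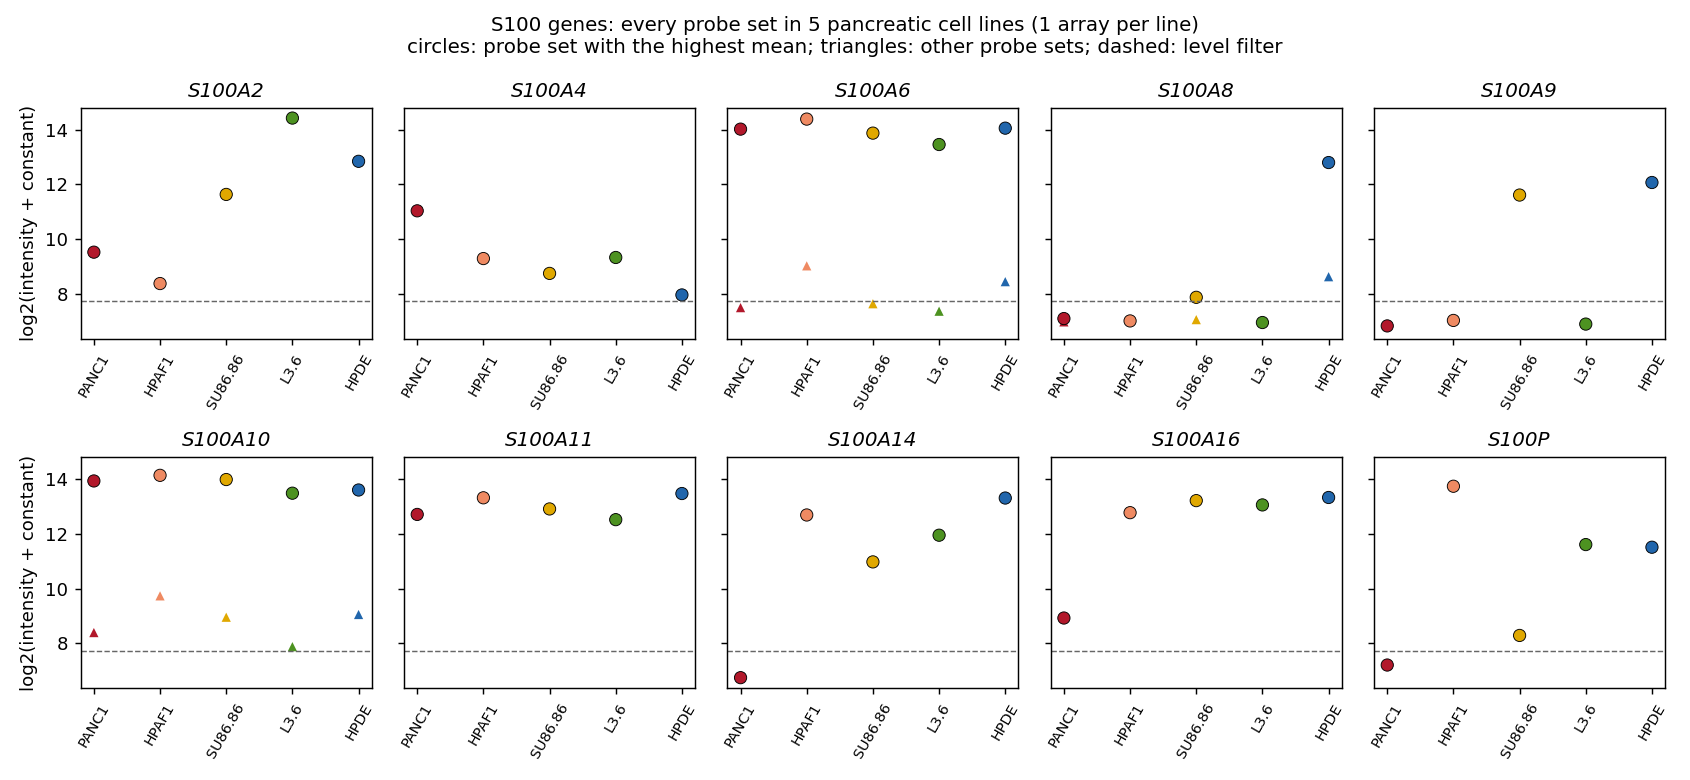
Level of each S100 gene in 5 cell lines, as log2(intensity + 71.1), with 1 point per array and no error bars because no line was repeated; circles are the probe set with the highest mean, triangles the other probe sets, and the dashed line is the level filter. Levels of different probe sets cannot be compared; within a gene, S100A6, S100A10 and S100A11 have the narrowest spread of circles (0.65 to 0.95) while S100A8 stands out in HPDE and S100A14 is below the filter in PANC1.

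**Figure D2:**
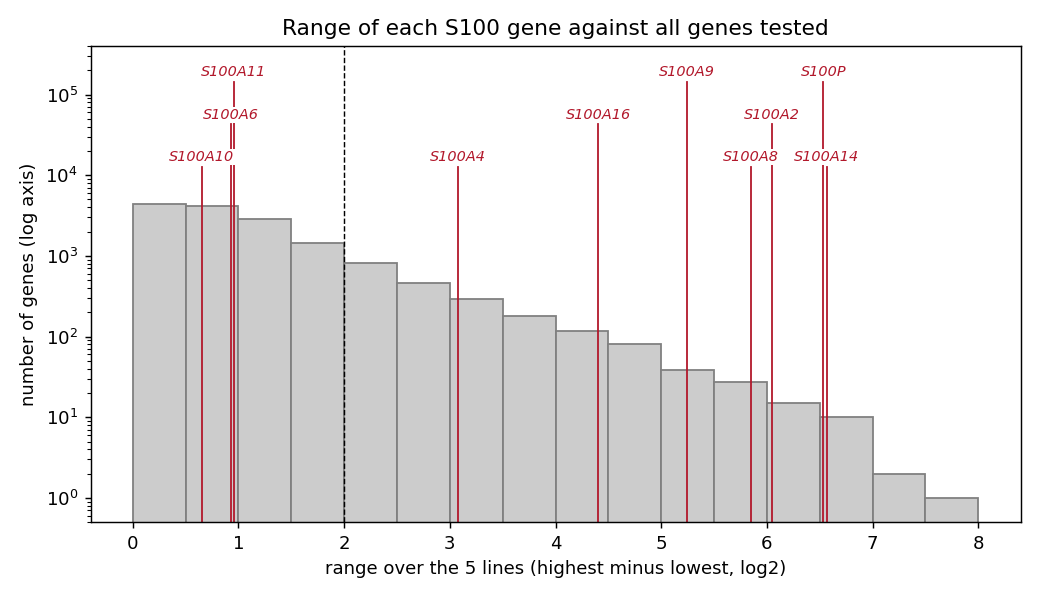
Number of genes (log axis) by range over the 5 lines (highest minus lowest log2 level) for the 14896 genes tested, as grey bars, with the range of each S100 gene as a red line and 4-fold as the dashed line. S100A10 (0.65), S100A6 (0.93) and S100A11 (0.95) lie among the bulk of genes, and the other 7 lie between 3.07 and 6.57.

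S100A10, S100A6 and S100A11 were bright in all lines and differed by less than 2-fold between them on their brightest probe sets. S100A10, which pairs with annexin A2 at the plasma membrane, gave intensities of 17955 in HPAF1, 16131 in SU86.86, 15559 in PANC1, 12360 in HPDE and 11392 in L3.6. S100A6, also called calcyclin, gave 21342 in HPAF1, 16950 in HPDE, 16535 in PANC1 and 14935 in SU86.86, with 11173 in L3.6. For both genes HPAF1 was highest and L3.6 lowest, and the ranges of 0.65 and 0.93 were wider than the widest range of a spike-in (0.32). S100A11, a partner of annexin A1, read 11296 in HPDE and 10129 in HPAF1, then 7620 in SU86.86, 6623 in PANC1 and 5793 in L3.6, so that HPDE and HPAF1 were high and L3.6 was again lowest. The ranges of S100A10, S100A6 and S100A11 exceeded those of 38.8%, 54.1% and 55.4% of all genes tested. A second, dimmer probe set of S100A6 spread more widely, with 449 in HPAF1, 277 in HPDE and 93.5 to 128 in the other lines, and the second of S100A10 ran from 164 in L3.6 to 779 in HPAF1.

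S100A8 and S100A9 encode the subunits of calprotectin, a metal-binding protein abundant in neutrophils and in stressed squamous epithelium. S100A8 gave an intensity of 7051 in HPDE, 163 in SU86.86, 65.7 in PANC1, 57.6 in HPAF1 and 52.6 in L3.6. HPDE alone was high, and PANC1, HPAF1 and L3.6 were below the level filter. Its second probe set, 324 in HPDE and 54.6 to 61.9 elsewhere, showed HPDE in the same place. S100A9 gave 4225 in HPDE, 3055 in SU86.86, 59.3 in HPAF1, 47.8 in L3.6 and 42.4 in PANC1, so 2 lines were high and 3 were below the filter. SU86.86 therefore lay 4.93 below HPDE for S100A8 but 0.46 below it for S100A9. HPDE exceeded the mean of the other 4 lines by 5.57 for S100A8 (SE 0.42, limma adjusted p = 0.122) and by 3.98 for S100A9 (SE 2.10, limma adjusted p = 0.727). Leaving out SU86.86, the other line with high S100A9, moved the S100A9 difference to 5.15 (limma adjusted p = 0.158, range over all alternatives 0.158 to 0.874). On the second probe set of S100A8, which is the one left when probe sets that can match several transcripts are dropped, the difference was 1.61.

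Because calprotectin is a product of myeloid cells, markers of those cells were read beside it. Of 8 measured myeloid markers, 2 (CD14 and CSF3R) reached the level filter in any line, and the defining markers PTPRC (52.7 to 67.9), CSF1R (100 to 127) and TYROBP (97.0 to 104) were below it in all lines. The summed intensity of the 8 was 922 in HPDE, within the span of the remaining lines, and 861 in SU86.86, the lowest of the 5 sums, while HPAF1 had the highest (1229). CD14 read 350 in HPAF1, 139 in HPDE, just under the filter, and 31.1 to 57.7 in the other lines. CSF3R read 209 to 252 across the lines. The part of these markers in the S100A8 and S100A9 result was not tested.

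S100A14 and S100A16, 2 epithelial members whose genes are neighbours, were both low in PANC1. S100A14 gave 10070 in HPDE, 6529 in HPAF1, 3882 in L3.6, a lower 1940 in SU86.86 and 35.9 in PANC1, a value below the level filter. S100A16 gave 10214 in HPDE, 9426 in SU86.86, 8445 in L3.6, 6928 in HPAF1 and 414 in PANC1. For S100A16 the 4 lines other than PANC1 were close together, with SU86.86 and HPDE only 0.11 apart, within the range of the spike-ins, while for S100A14 they were spread out. Against the mean of the others PANC1 differed by -4.17 for S100A16 (SE 0.28, limma adjusted p = 0.0823) and by -5.49 for S100A14 (SE 0.91, limma adjusted p = 0.327). Of all the members, S100A16 in PANC1 came nearest to the threshold of 0.05. The summed intensity of the 5 epithelial markers was also lowest in PANC1, at 20739 against 32900 to 89957 elsewhere, and the next lowest sum was that of HPDE, where both S100 genes were highest. Of these markers CDH1 was lowest in PANC1 (320) and highest in HPDE (10281), as S100A14 and S100A16 were. In L3.6, however, CDH1 gave only 895, where S100A14 gave 3882 and S100A16 gave 8445. EPCAM, KRT8, KRT18 and KRT19 were highest in HPAF1, and KRT8 and KRT18 were lowest in HPDE. The part of these markers in the result was not tested.

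S100A2, a member of stratified epithelia, had a graded pattern of its own. It gave 21909 in L3.6, 7276 in HPDE, 3104 in SU86.86, 664 in PANC1 and 261 in HPAF1. Every step in this order was over 2-fold, the top step being 1.58 and the bottom one 1.15. L3.6 exceeded the mean of the others by 3.83 (SE 1.82), with a limma adjusted p of 1.00, and for HPAF1 the difference was -3.73 (SE 1.86, limma adjusted p = 0.626).

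S100P, first found in placenta and often high in pancreatic carcinoma, was the member most prominent in HPAF1. It gave 13602 in HPAF1, 3049 in L3.6, 2845 in HPDE, 241 in SU86.86 and 76.3 in PANC1. L3.6 and HPDE differed by 0.10, within the range of the spike-ins, and PANC1 was below the level filter. HPAF1 exceeded the mean of the others by 4.09 (SE 2.02, limma adjusted p = 0.621). HPAF1 alone among the carcinoma lines was over 2-fold above HPDE for S100P, and PANC1 and SU86.86 were over 2-fold below it.

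S100A4, a member found in motile and mesenchymal cells, ran opposite to S100A14 at its ends. It gave 2025 in PANC1, 572 in L3.6, 554 in HPAF1, 358 in SU86.86 and 178 in HPDE, the last close to the level filter. PANC1 was highest by 1.71 over the next line and HPDE lowest by 0.79. PANC1 exceeded the mean of the others by 2.20 (SE 0.60, limma adjusted p = 0.660). Fibroblast markers were read beside it: 6 of 7 reached the level filter in some line, their summed intensity was 2636 in PANC1 and 1864 to 3163 in the other lines, and the defining markers COL3A1 (108 to 157) and DCN (173 to 237) had similar levels in all lines on their brightest probe sets. On another probe set COL3A1 read 408 in L3.6, 120 in PANC1 and 43.8 to 48.4 in the rest, and COL1A2 read 889 in L3.6 against 94.8 to 121 elsewhere. COL1A1 read 1685 in PANC1 and 987 to 1453 elsewhere on its brightest probe set, but on another it read 6005 in PANC1, 1478 in L3.6, 520 in HPDE, 109 in SU86.86 and 69.5 in HPAF1. The part of COL1A1 and the other fibroblast markers in the S100A4 result was not tested.

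The test of each line against the other 4 called none of the 10 members. With limma and Benjamini-Hochberg adjustment over 14896 genes, 0 of 10 members passed 0.05 in PANC1 (0.0269% of all genes did), in HPAF1 (0.242%) and in HPDE (0.0269%). The count was also 0 in L3.6 (0%) and SU86.86 (0%). At an unadjusted limma p under 0.05, 3 members passed in PANC1 (S100A4, S100A14 and S100A16), against 5.56% of all genes. In HPDE 1 member did (S100A8), against 8.23%, and 0 did in HPAF1 (10% of all genes), SU86.86 (3.74%) and L3.6 (3.37%). These p-values rest on the spread between different lines and leave 3 residual degrees of freedom.

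Set against HPDE alone, the carcinoma lines had mostly lower levels of the variable members. The ranges that mark a member as variable include HPDE, the highest line for S100A8, S100A9, S100A14 and S100A16. Lower levels than HPDE are therefore partly built into that choice. These differences have 1 array on each side and are given by size with no test. PANC1 had 6 members at least 2-fold lower than HPDE (9.26% of all genes were) and 1, S100A4, at least 2-fold higher (8.47%). HPAF1 had 3 lower (9.27%), which were S100A2, S100A8 and S100A9, and 2 higher (7.77%), S100P by 2.23 and S100A4 by 1.33. SU86.86 had 4 lower (7.72%), S100A2, S100A8, S100A14 and S100P, and 0 higher (8.44%). L3.6 had 3 lower (8.59%), S100A8, S100A9 and S100A14, and 2 higher (6.55%), S100A2 by 1.58 and S100A4 by 1.37. S100A8 was at least 2-fold lower in all 4 lines, with differences from -4.93 to -5.85. The 4 differences share the HPDE array. Over the members the median difference from HPDE was -3.81 for PANC1 (0.03 over all genes tested), -0.51 for SU86.86 (-0.02), -0.44 for L3.6 (0.03) and -0.36 for HPAF1 (0.02).

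**Figure D3:**
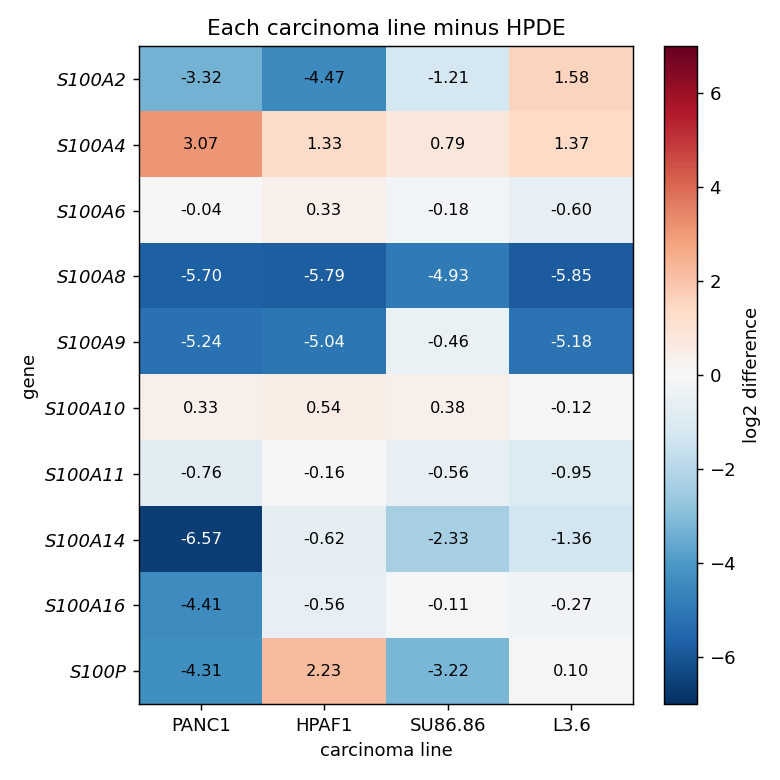
Log2 difference of each S100 gene (rows) between each carcinoma line (columns) and HPDE, 1 array on each side, with red for higher and blue for lower than HPDE. S100A8 is blue in all 4 columns (-4.93 to -5.85), S100A9 is likewise lower in all 4 but only faintly blue in SU86.86 (-0.46), and S100P is red in HPAF1 (2.23) and blue in PANC1 (-4.31).

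Of 20 S100 genes listed, 16 lie on chromosome 1, 9 of the members among them, while S100P lies on chromosome 4. In the order of RefSeq protein-coding genes, S100A16, S100A14 and S100A13 follow each other. All 3 had their lowest level in PANC1 on the probe sets used in the fit. S100A13, which is no member, gave 490 in PANC1 and 1568 to 2717 elsewhere, which is -2.01 relative to the others' mean (SE 0.35, limma adjusted p = 0.334). Its second, dim probe set gave 133 in PANC1 and was lowest in HPDE (97.7). S100A1, the gene after S100A13, was highest in PANC1, at 218 against 142 to 179. Next to S100A4 lies S100A3, and both had their highest level in PANC1, S100A3 at 308 against 109 to 148. S100A2, between S100A3 and S100A16, was instead lowest in HPAF1. S100A9 and S100A8 have S100A12 between them, which stayed below the level filter in all lines (105 to 132).

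**Figure D4:**
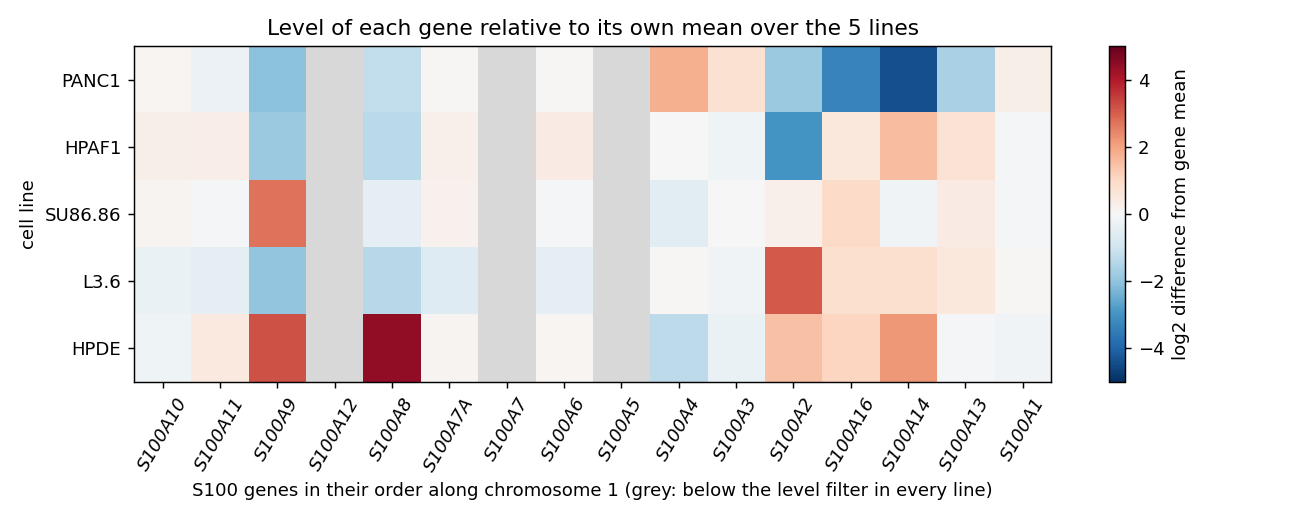
Log2 level of 16 S100 genes relative to each gene's own mean over the 5 lines (colour), with genes in their order along chromosome 1 and lines as rows; grey columns are genes below the level filter in every line. The PANC1 row is blue at S100A16 (-3.34), S100A14 (-4.39) and S100A13 (-1.61) and red at S100A4 (1.76) and S100A3 (0.76).

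Of the 10 other S100 genes, 4 reached the level filter: S100A1, S100A3, S100A7A and S100A13. S100A1 hardly differed, at 142 to 218. S100A7A, close in sequence to S100A7 so that its probe sets may not tell the pair apart, read 100 in L3.6 and 206 to 245 elsewhere. S100A5, S100A7, S100A12, S100B, S100G and S100Z were below the filter in every line. None of the 4 passed the limma threshold in any line, and at an unadjusted limma p under 0.05 there were 2 in PANC1 (S100A3 and S100A13, against 5.56% of all genes), 1 in L3.6 (S100A7A, against 3.37%) and 0 in HPAF1, SU86.86 and HPDE.

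All 12 listed partners and receptors of S100 proteins entered the fit, 0 passed the limma threshold in any line, and 2 had a range of at least 4-fold (13.6% of all genes did). ANXA2, the partner of S100A10, gave 14931 in HPDE and 20187 to 25298 in the other lines. ANXA1, the partner of S100A11, gave 2070 in PANC1 and 7057 to 12242 elsewhere, which is -2.15 relative to the others' mean (SE 0.39, limma adjusted p = 0.350). ANXA6, another annexin, ran from 67.1 in HPDE to 1094 in SU86.86, and EZR, the membrane linker that S100P binds, from 3092 in HPDE to 10914 in SU86.86. SUGT1 ran from 1206 in HPDE to 3572 in SU86.86, CACYBP, a binding protein of S100A6, from 1937 in HPDE up to 4507 in L3.6, and BSG, a receptor for S100A9, from 1753 in PANC1 to 4162 in HPAF1. The receptor AGER ran from 481 to 661. TLR4, another receptor, gave 298 in SU86.86 and 150 to 195 elsewhere (0.60 above the mean of the others, SE 0.20, limma adjusted p = 0.998). At an unadjusted limma p under 0.05 there were 4 of the 12 in SU86.86 (3.74% of all genes), 2 in HPDE (8.23%), 1 each in PANC1 (5.56%) and L3.6 (3.37%), and 0 in HPAF1 (10%).

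For the 7 members with a range of at least 4-fold, the 2 other genes with the most similar profile were sought among all genes tested, by the root mean square difference of levels centred on each gene's mean over the 5 lines. With 5 points per gene and 14896 genes to choose from, the values are a description only. S100A4 came closest to KAT2B, an acetyltransferase (0.19), and PHF14 (0.25). S100A16 came closest to MGST1, a microsomal glutathione transferase (0.20), and SNAI2, a transcription factor (0.28), which read 6.82 in PANC1 and 10.26 to 11.22 elsewhere on the log2 scale. S100A14 came closest to SERPINB5, a serpin of epithelial cells (0.33), and IFI16 (0.59). S100A8 lay nearest to the keratin KRT16 (0.48) and the cyclin CCND2 (0.53), and S100A9 to the cytokine IL1A (0.55) and CALHM6 (0.66). S100P lay nearest to FOS (0.59) and IFITM1 (0.61), and S100A2 to LY6K (0.62) and the collagen chain COL4A1 (0.67). Among the members themselves the most similar pairs were S100A6 with S100A10 (0.20) and S100A6 with S100A11 (0.24), S100A14 with S100A16 stood at 0.97, and the calprotectin subunits S100A8 and S100A9 at 1.62.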

How the data were processed

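The authors deposited a table of linear intensity values for 54675 probe sets on 5 arrays, 1 per cell line; the method of summary, scaling or background correction was not given in the sources used here. Biotin-labelled target was made with a one-cycle kit, per the labels' protocols. The log2 medians of the arrays differed by 0.04, so no further normalization was applied. The 41091 probe sets with 1 gene symbol were used (GEO's platform annotation, symbols updated through RefSeq), those with several symbols (1801) were not named, and 62 control probe sets were left out. Values were transformed as log2(intensity + 71.1), the 25th percentile of positive values. Each gene was represented by its probe set with the highest mean, and genes reaching the median of all probe sets (140) in any line were kept (14896). Each line was tested against the other 4 with limma 3.58.1 (R 4.3.3), two-sided, with Benjamini-Hochberg adjustment over all these genes; the script was checked on simulated data. The fit assumes that a lone line varies as the others do, and nothing measures the spread between cultures. The members and gene lists were chosen with earlier results of these data known. The genes named besides members are the other S100 genes, the 6 partners with the widest ranges, ANXA1, ANXA2, AGER and TLR4 in any case, fixed markers and the 2 nearest profiles per variable member, for which 1 gene that reads donor sex was left out. Alternatives varied the added constant, the level filter, the choice of probe sets, the normalization and prior of the fit, and the lines included.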

Additional observations from a re-analysis of the deposited data

Results flagged for a closer look

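Over the 5 lines, 18 probe sets of S100 genes that reached the level filter in at least 1 line were checked. A line was flagged if its distance to its nearest neighbour exceeded 0.71 of the whole range. This is Dixon's 95% critical value for 5 samples, which chance gives in about 1 in 20 unselected sets. The log2 levels that met it were S100A8 in HPDE on both probe sets (12.80 and 8.62, above the other 4 lines), S100A16 in PANC1 (8.92, below the others), S100A3 in PANC1 (8.57, above the others) and S100A7A in L3.6 (7.42, below the others). S100A7A had a narrow range (0.88), and its L3.6 level was below the level filter. The share of all probe sets that meet the rule was not worked out, so the number flagged says nothing about the family. Each line is 1 array, so the distance belongs to that culture and array. The dimmer S100A8 probe set reached the filter in HPDE alone (324). It entered the check only through the line where it is high, so the rate of 1 in 20 does not hold for it. All these genes were chosen with earlier results of these data known, so for the other flagged probe sets the rate is no test either.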

How the results depend on the processing

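In the test of each line against the other 4, 0 members passed the limma threshold in the main setting and in all 12 alternatives run for that line (unadjusted p under 0.05: 2 to 4 members in PANC1, 1 to 2 in HPDE, 0 to 2 in SU86.86, 0 to 1 in HPAF1 and in L3.6), and the direction of the widest difference of each member was kept. For S100A16 in PANC1 the difference ran from -4.39 to -4.09 and the limma adjusted p from 0.0510 (prior variance following intensity) to 0.359 (without SU86.86). For S100A8 in HPDE the limma adjusted p ran from 0.0634 to 0.383, and its difference of 5.57 became 6.55 with no added constant, 3.59 when a gene's probe sets were averaged and 1.61 when probe sets matching more than 1 transcript were dropped. With no added constant S100A14 in PANC1, where it lies below the level filter, went from -5.49 to -7.04. Over all alternatives the difference ran from 3.09 to 4.58 for S100A2 in L3.6, from 3.27 to 4.74 for S100P in HPAF1, from 3.56 to 5.15 for S100A9 in HPDE and from 1.91 to 2.43 for S100A4 in PANC1. That drop removed S100A4, which has no other probe set, and the members at least 2-fold higher than HPDE became 0 in PANC1, 1 in HPAF1 and 1 in L3.6; 5 members then had a range of at least 4-fold. With no added constant 1 member, S100A4 at 1.01, was at least 2-fold higher than HPDE in SU86.86. Leaving out 1 line at a time left 5 to 7 members with that range. Quantile normalization moved the median of all genes by at most 0.05. No paired analysis was possible because each line has a single array and the labels give no replicate numbers. With no repeated culture and no detection calls used here, levels below the filter have no order.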

Other observations

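The following values were picked after they were seen. The dim second probe sets of S100A6, S100A10 and ANXA1 had HPAF1 and HPDE as their 2 highest lines, at 449 and 277, 779 and 459, and 370 and 327, while the remaining lines gave 93.5 to 128, 164 to 424 and 18.7 to 47.1. On the brightest probe sets HPAF1 and HPDE were also the 2 highest lines for S100A6 and ANXA1, but for S100A10 they were HPAF1 and SU86.86. On 1 of the 4 probe sets of TLR4 SU86.86 read 259 against 69.6 to 84.7 elsewhere, and it was the highest line on the other 3 as well.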
